A study of Mus musculus with 98 samples.

Results

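Long 3' overhangs are broken DNA ends on which the 3'-ending strand runs at least 20 nt beyond the 5'-ending strand. They were followed here at breaks made by the RAG recombinase at 2 sites in mouse pre-B cells: the Jk1 segment (gene Igkj1) of the immunoglobulin kappa locus and a chromosomal recombination substrate. The members were selected on their measured overhang, 20 nt or more, in the 11 tables of RAG-induced ends. They made up 913 of the 8208 entries in those tables, or 280 distinct structures at Jk1 and 486 at the substrate. Because overhang length chose them, the lengths below are a description.

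A broken end that escapes joining can be resected. Nucleases remove the 5'-ending strand and leave the 3'-ending strand as a single-stranded tail, which is the substrate for repair by homology. In G1 cells DNA ligase IV (Lig4) joins broken ends by non-homologous end joining, and without it RAG ends remain unjoined. The histone variant H2AX (H2ax), phosphorylated around breaks, and 53BP1 (Trp53bp1), which is recruited to that chromatin, are known to protect ends from resection.

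The ends were read by hairpin capture of DNA end structures (HCoDES): a single-stranded DNA ligase sealed the strands of an end into a hairpin, which was treated with bisulfite, amplified and sequenced in pairs. All cells were G1-arrested, Abelson-transformed pre-B lines. The mutant lines were Lig4-/- H2AX-/- lines 5 and 8, and Lig4-/- 53BP1-/- line B at both sites with line C at the substrate; Lig4-/- lines A and B, which had no added mutation, were their comparison. Every cell in these comparisons lacked Lig4, so nothing here shows ends in cells that can join them. Whether the lines of a genotype come from separate animals is not given in the labels. Each table pooled 3 libraries, so the line was the replicate and n counts lines. An exact permutation test over lines, two-sided, cannot give a p below 0.333 with 2 lines against 2, or with 1 against 2, so no difference below could pass 0.05.

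The tables held 157970 to 315274 reads at Jk1 and 72923 to 337917 at the substrate. All were sequenced in run set 4, except H2AX-/- line 8 in set 2 and 53BP1-/- line C in set 6. The titles give 48 h for Lig4-/- lines A and B, 53BP1-/- line B and H2AX-/- line 8, and no time for the other 2 lines. Titles of Lig4-/- line B and 53BP1-/- line C carry a tag, shNT, that is not explained. One library of 53BP1-/- line C has H2AX-/- line 5 in its title too, and its reads are described as mixed with those of another PCR, so results for line C are also given by line. Each share has a 95% interval by the exact Clopper-Pearson method. It covers counting error only, since the reads carry no molecular identifiers and copies of 1 molecule are counted apart. In the KpnI control, whose end has a known 4-nt 3' overhang, structures with overhangs of 20 nt or more held 0.0543% of 307425 reads.

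At Jk1 long 3' overhangs were a larger part of all reads in every mutant line than in either Lig4-/- line. They held 5.57% of reads in H2AX-/- line 5 (95% interval 5.47 to 5.68) and 5.45% in line 8 (5.34 to 5.57). In 53BP1-/- line B they held 9.98% (9.87 to 10.1). In the Lig4-/- lines, A and B, they held 1.05% (1.01 to 1.08) and 1.75% (1.70 to 1.79). The H2AX-/- lines averaged 5.51% ± 0.0849 and the Lig4-/- lines 1.40% ± 0.497 (SD, n = 2 each), a difference of 4.12 percentage points (exact permutation p = 0.333). The smallest gap between these genotypes, 3.71 points, exceeded the 0.703 points between the Lig4-/- lines. For 53BP1-/- line B the difference was 8.59 points (exact permutation p = 0.333) and the smallest gap 8.23 points. When structures were counted in place of reads, the H2AX-/- difference was -0.167 points at Jk1 and the lines overlapped.

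At the substrate the mutant lines were again above the Lig4-/- lines. In each comparison the smallest gap between genotypes was below the largest gap within a genotype. That smallest gap was 1.65 points for H2AX-/-. Long 3' overhangs held 10.2% of reads in H2AX-/- line 5 (9.94 to 10.4) and 7.24% in line 8 (7.05 to 7.43). They held 10.8% in 53BP1-/- line B (10.7 to 10.9) and 5.88% in line C (5.75 to 6.01). Lig4-/- line A, at 5.59% (5.51 to 5.67), came close to 53BP1-/- line C, and line B was at 2.66% (2.57 to 2.75). The means were 8.70% ± 2.07 in H2AX-/- lines and 4.12% ± 2.07 in Lig4-/- lines (SD, n = 2 each), a difference of 4.57 points (exact permutation p = 0.333). The 53BP1-/- lines averaged 8.36% ± 3.51 (SD, n = 2), a difference of 4.24 points (exact permutation p = 0.333) with a smallest gap of 0.288 points. Between lines of 1 genotype the gaps reached 2.93 points among Lig4-/- and 4.96 points among 53BP1-/- lines. With each structure counted once, the H2AX-/- difference was -0.611 points. Within run set 4 the differences were 6.03 points for H2AX-/- line 5 and 6.72 points for 53BP1-/- line B. Without 53BP1-/- line B the difference for that genotype was 1.76 points, and without Lig4-/- line B 2.77 points.

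**Figure D1:**
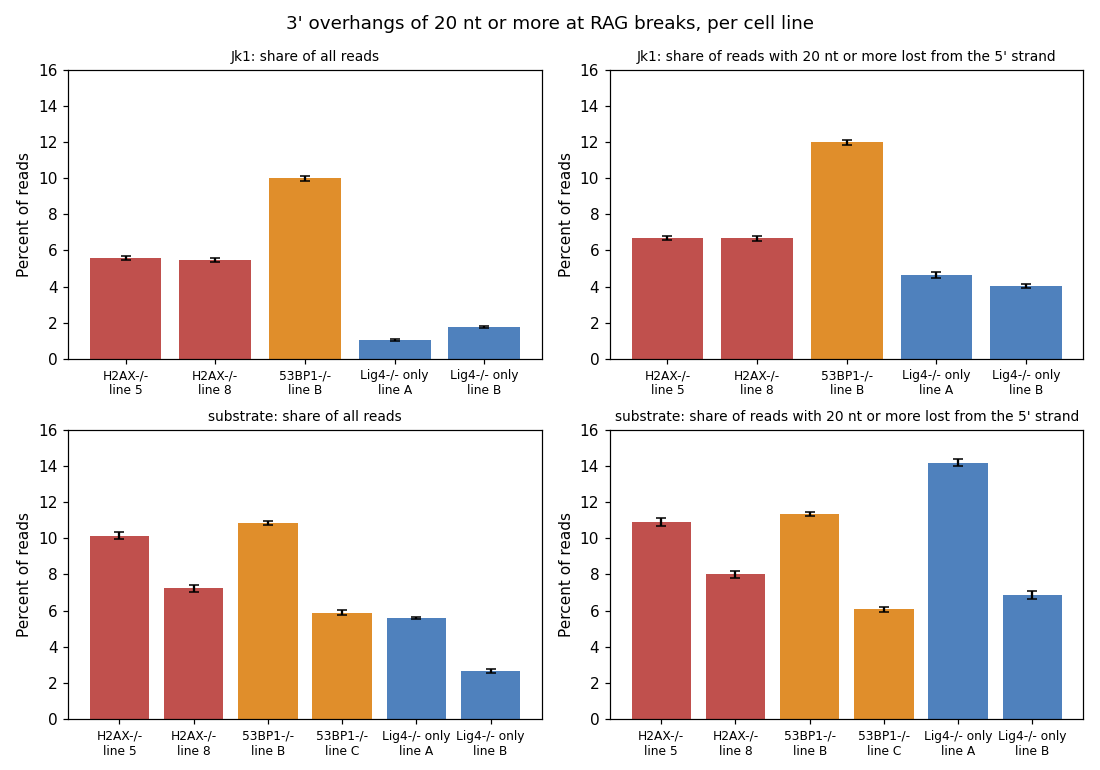
Percent of reads with a 3' overhang of 20 nt or more in each cell line at Jk1 (top) and the substrate (bottom), among all reads (left) and among reads with a 5'-ending strand shortened by 20 nt or more (right). Bars are single lines with exact 95% counting intervals. The mutant bars stand above the Lig4-/- bars in 3 panels, and overlap them in the lower right panel, where Lig4-/- line A reaches 14.2%.

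A long 3' overhang needs a 5'-ending strand shortened by at least as much, and such ends were themselves more frequent in the mutants. Reads whose 5'-ending strand was shortened by 20 nt or more made up 83.4% and 81.6% in H2AX-/- lines 5 and 8 at Jk1 and 83.3% in 53BP1-/- line B, against 22.5% and 43.2% in the Lig4-/- lines (A and B). At the substrate the values were 93.1% and 90.4% in H2AX-/- lines 5 and 8 and 95.6% and 96.9% in 53BP1-/- lines B and C, against 39.4% and 38.6% in the Lig4-/- lines (A and B). Long 3' overhangs were therefore also counted among those resected ends alone.

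Among resected ends at Jk1 the mutants stayed above the Lig4-/- lines, with a smaller ratio. The share was 6.69% in H2AX-/- line 5 (6.56 to 6.82), 6.68% in line 8 (6.55 to 6.82) and 12.0% in 53BP1-/- line B (11.9 to 12.1). It was 4.65% in Lig4-/- line A (4.49 to 4.81) and 4.05% in line B (3.94 to 4.15). The ratio of means for H2AX-/- was 1.54, in place of 3.95 over all reads, and the difference 2.34 points (exact permutation p = 0.333). For 53BP1-/- line B the ratio was 2.76, in place of 7.15, and the difference 7.64 points (exact permutation p = 0.333). The H2AX-/- difference was 0.777 points for overhangs of 25 nt or more, and 0.0963 points for those of 30 nt or more, where the lines overlapped. With each structure counted once it was -1.39 points.

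The same share did not separate the genotypes at the substrate. It was 10.9% and 8.00% in H2AX-/- lines 5 and 8 and 11.3% and 6.07% in 53BP1-/- lines B and C, against 14.2% and 6.88% in the Lig4-/- lines (A and B). The differences were -1.08 points for H2AX-/- (exact permutation p = 1) and -1.83 points for 53BP1-/- (exact permutation p = 0.667). Their sign depended on single lines. Without Lig4-/- line A they were 2.57 and 1.82 points, and without Lig4-/- line B -4.73 and -5.48 points. Within run set 4 they were 0.372 and 0.806 points.

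The share was then taken within classes of loss from the 5'-ending strand, set after seeing the data. In the class with 140 nt or more lost at Jk1, long 3' overhangs held 20.2% of reads in H2AX-/- line 5, 13.3% in line 8 and 23.8% in 53BP1-/- line B, against 9.03% in Lig4-/- line A, with 7.91% in line B. At the substrate they held 16.8% and 10.5% in H2AX-/- lines 5 and 8, and 17.0% and 2.28% in 53BP1-/- lines B and C. In the Lig4-/- lines, A and B, they held 31.5% and 22.6%. In that class every mutant line was above both Lig4-/- lines at Jk1 and below both at the substrate. The class held at least 10041 reads and 66 structures in each table, both lows in Lig4-/- line A at Jk1. A few members carried much of this share in the Lig4-/- lines and in 53BP1-/- line C at the substrate. The 3 leading members there held 3130, 2708 and 1948 of 35020 reads in line A and 848, 725 and 659 of 10254 in line B. In H2AX-/- line 5 they held 1081, 1049 and 633 of 32038, and in line 8 396, 391 and 377 of 41578. In 53BP1-/- line B they held 2981, 2110 and 1994 of 179158, and in line C the leading member alone held 1162 of 59676. The class shares without these members were not computed, so the order of the lines at the substrate is given only with them included. In the class of 20 to 59 nt at Jk1, H2AX-/- lines 5 and 8 were at 1.04% and 0.0672% and overlapped Lig4-/- lines A and B, at 1.24% and 0.355%, while 53BP1-/- line B was at 4.95%. In the class of 60 to 99 nt at Jk1 the values were 7.07% and 5.19% for H2AX-/- lines 5 and 8 and 9.22% for 53BP1-/- line B, against 6.32% and 1.23% for Lig4-/- lines A and B. The substrate values of that class were 3.71% and 2.59% for H2AX-/- lines 5 and 8, below both Lig4-/- lines, and 9.20% and 11.4% for 53BP1-/- lines B and C, between Lig4-/- lines A and B at 19.3% and 8.24%. In the class of 20 to 59 nt the substrate values were 4.91% and 0.822% for H2AX-/- lines 5 and 8, and 1.01% and 0% for 53BP1-/- lines B and C, against 4.61% and 0.991% for Lig4-/- lines A and B. The 0% rests on 1067 reads in 4 structures. In the class of 100 to under 140 nt at Jk1, H2AX-/- lines 5 and 8 were at 2.22% and 3.93%, below Lig4-/- lines A and B at 6.39% and 4.85%, while 53BP1-/- line B at 5.57% lay between those 2. At the substrate that class held 7.55% and 5.24% in H2AX-/- lines 5 and 8, and 3.27% and 9.40% in 53BP1-/- lines B and C, against 4.06% and 2.41% in the Lig4-/- lines (A and B).

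**Figure D2:**
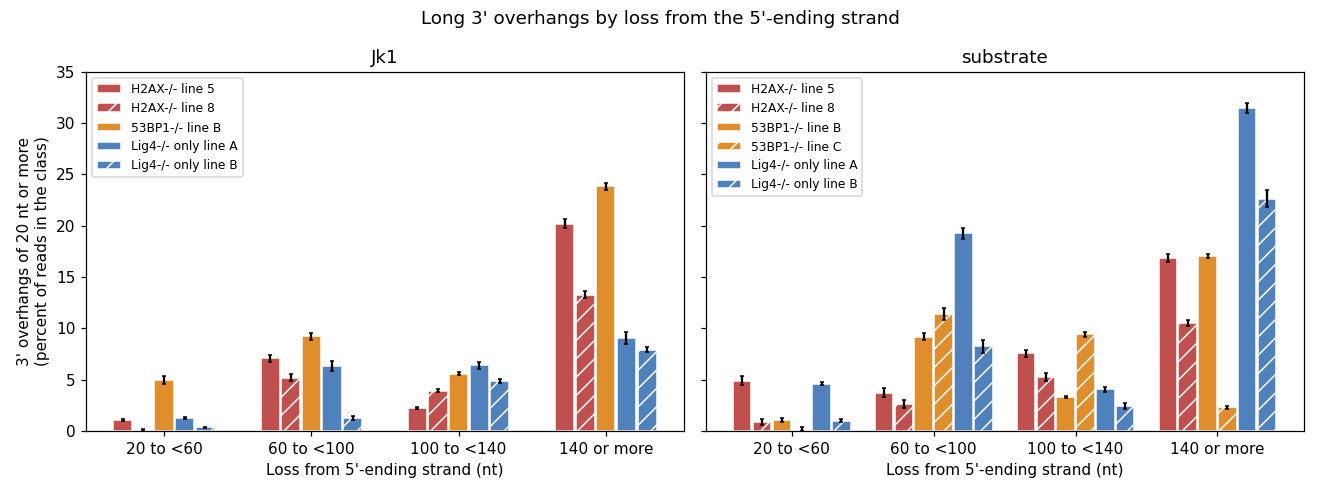
Percent of reads with a 3' overhang of 20 nt or more, within classes of loss from the 5'-ending strand (x axis, nt), for each cell line at Jk1 (left) and the substrate (right). Bars are single lines with exact 95% counting intervals. In the class of 140 nt or more, the mutant lines sit at 13.3 to 23.8% at Jk1, above Lig4-/- lines at 7.91 and 9.03%, and at 2.28 to 17.0% at the substrate, below Lig4-/- lines at 22.6 and 31.5%.

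Most long overhangs were not made of an intact 3'-ending strand. Loss was counted from the lowest position of either strand in the tables. At Jk1 the 3'-ending strand stopped within the first 10 nt in 0.903% and 3.79% of member reads of H2AX-/- lines 5 and 8 and in 2.46% of 53BP1-/- line B. In the Lig4-/- lines, A and B, it did so in 12.4% and 8.39%. The difference for H2AX-/- was -8.02 points, with means of 2.35% ± 2.04 in H2AX-/- lines and 10.4% ± 2.80 in Lig4-/- lines (SD, n = 2 each). For 53BP1-/- line B it was -7.91 points. No test result is given for this share, since overhang length chose the members and sets where their 3'-ending strand stops. With a limit of 5 nt in place of 10 nt, the lines overlapped in both comparisons.

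At the substrate the near-complete 3' strand was rarer still in most lines. It made up 0.697% and 0.682% of member reads in H2AX-/- lines 5 and 8 and 2.48% and 0.722% in 53BP1-/- lines B and C. Lig4-/- line A, at 1.01%, was like the mutants, and line B, at 9.84%, was not. The differences of -4.74 points for H2AX-/- and -3.82 points for 53BP1-/- were -0.317 and 0.594 points without Lig4-/- line B. They also depended on the length limit. For overhangs of 15 nt or more the share averaged 2.01% in H2AX-/- lines and 1.34% in 53BP1-/- lines, against 29.6% in Lig4-/- lines, with every mutant line below both Lig4-/- lines.

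Counted over all reads instead, long overhangs with a near-complete 3'-ending strand were rare everywhere. At Jk1 they held 0.0503% and 0.207% in H2AX-/- lines 5 and 8 and 0.246% in 53BP1-/- line B, against 0.129% and 0.147% in the Lig4-/- lines (A and B). At the substrate they held 0.0708% and 0.0494% in H2AX-/- lines 5 and 8, and 0.269% and 0.0424% in 53BP1-/- lines B and C. Lig4-/- lines A and B held 0.0562% and 0.261% there. At Jk1 the H2AX-/- lines overlapped the Lig4-/- lines while 53BP1-/- line B was above both, and at the substrate both mutant genotypes overlapped them. A 3'-ending strand with no loss at all appeared in 84 reads of 1 structure in H2AX-/- line 5 at Jk1, a 67-nt overhang. The other 10 tables held 0 to 33 such reads each.

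The 3'-ending strand of the members usually stopped deep inside. At Jk1 its median loss was 119 and 109 nt in H2AX-/- lines 5 and 8 and 114 nt in 53BP1-/- line B, against 43 and 88 nt in the Lig4-/- lines (A and B). Losses of 100 nt or more made up 63.2% and 68.6% of member reads in H2AX-/- lines 5 and 8 and 59.9% in 53BP1-/- line B. They made up 12.0% and 26.6% in the Lig4-/- lines (A and B). When structures were counted in place of reads, the median differed by 20 nt for both genotypes, where it had differed by 48.5 nt, and the H2AX-/- lines overlapped the Lig4-/- lines. The medians mixed at the substrate, with 91 and 130 nt in H2AX-/- lines 5 and 8, 134 and 95 nt in 53BP1-/- lines B and C, against 104 and 134 nt in the Lig4-/- lines (A and B). This depended on the length limit. With a limit of 15 nt the medians there differed by 88 nt for H2AX-/- and 92.5 nt for 53BP1-/-, and with 25 nt by 39 and 38.5 nt, every mutant line being above both Lig4-/- lines; with 30 nt they overlapped again.

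**Figure D3:**
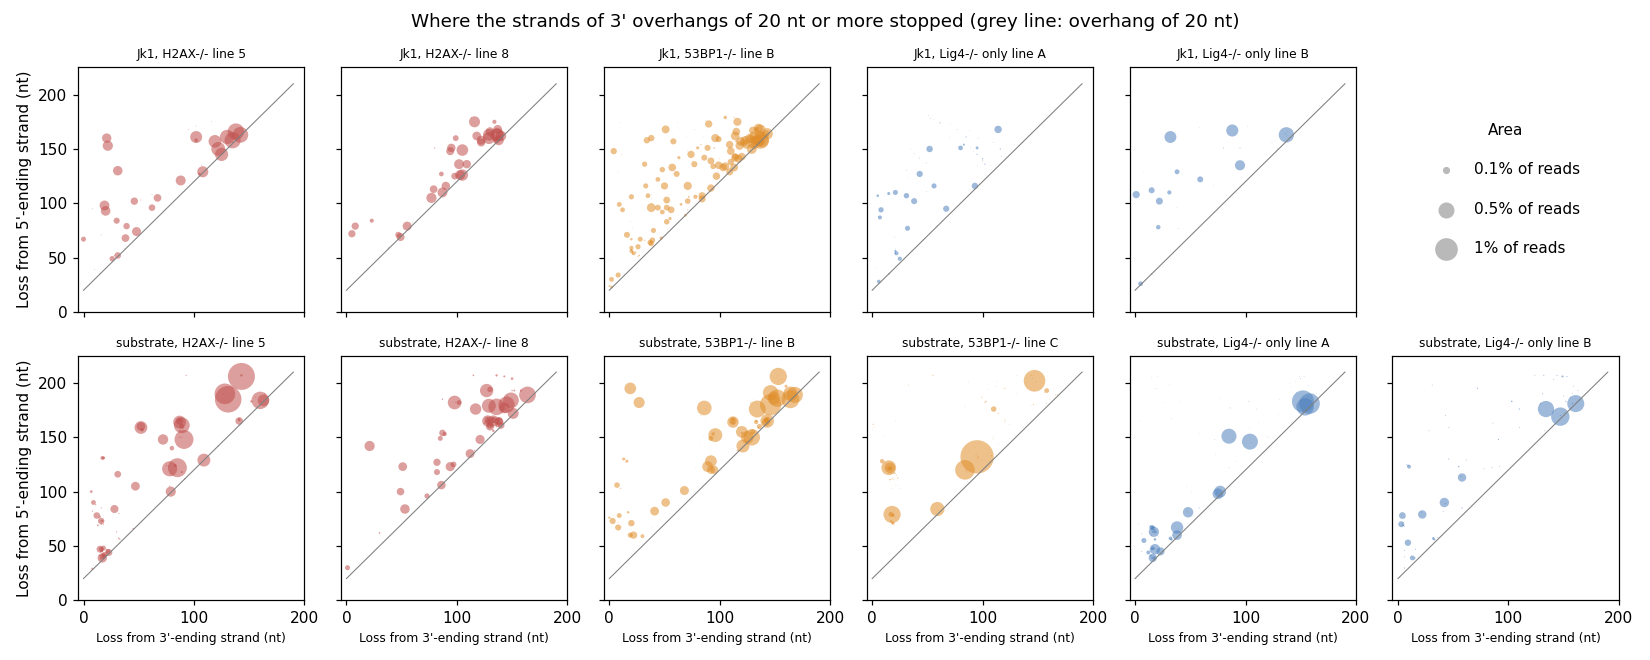
Each circle is a 3' overhang of 20 nt or more, placed by the loss from its 3'-ending strand (x axis, nt) and from its 5'-ending strand (y axis, nt); the area is its percent of reads in that line. The grey line marks an overhang of exactly 20 nt. In the mutant lines at Jk1 the large circles gather near the line at a 3' loss of 100 nt or more, where they hold 59.9 to 68.6% of member reads.

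Length is the loss from the 5'-ending strand minus that from the 3'-ending strand, so it is tied to these stops by definition. At Jk1 the median member was 28 and 31 nt long in H2AX-/- lines 5 and 8 and 31 nt in 53BP1-/- line B, against 64 and 79 nt in the Lig4-/- lines (A and B). At the substrate it was 57 and 35 nt in H2AX-/- lines 5 and 8 and 34 and 37 nt in 53BP1-/- lines B and C, against 29 and 31 nt in the Lig4-/- lines (A and B). The mutant members were thus the shorter ones at Jk1 and the longer ones at the substrate, though at the substrate the lines overlapped once the most abundant member of each table was left out. Overhangs of 50 nt or more made up 26.3% and 14.9% of member reads in H2AX-/- lines 5 and 8 at Jk1 and 24.5% in 53BP1-/- line B, against 67.8% and 58.9% in the Lig4-/- lines (A and B). The longest member at Jk1 was a 165-nt overhang with 2 reads, in 53BP1-/- line B. At the substrate it was a 190-nt overhang with 2 reads, in Lig4-/- line A. The highest 5'-strand loss in any table was 181 nt at Jk1 and 207 nt at the substrate, so ends beyond the amplified window were not measured.

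**Figure D4:**
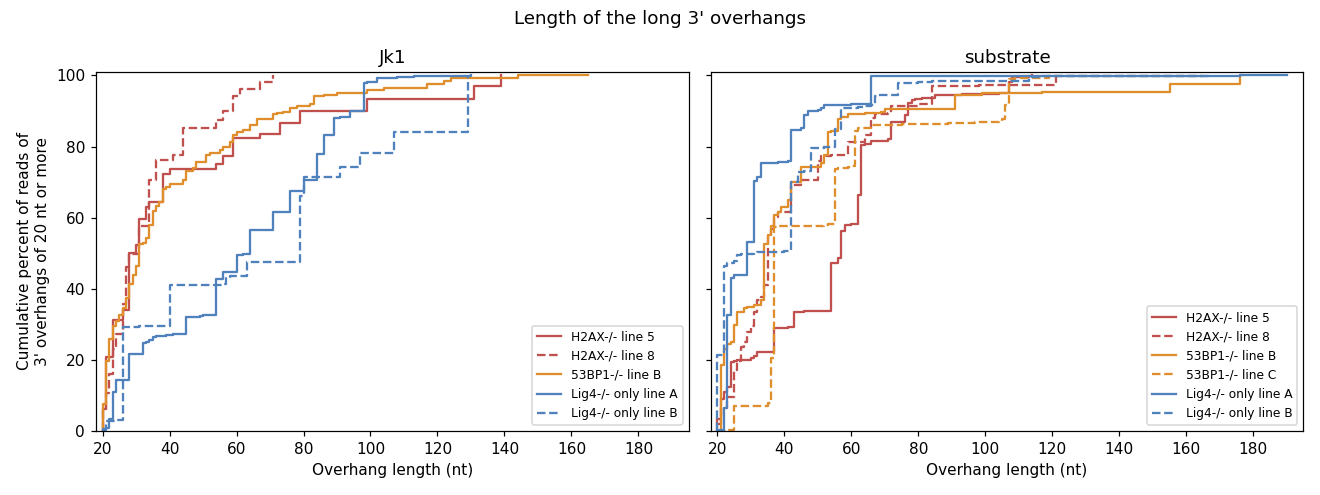
Cumulative percent of the reads of 3' overhangs of 20 nt or more (y axis) against overhang length (x axis, nt), 1 line per cell line, at Jk1 (left) and the substrate (right). At Jk1 the curves of the mutants pass 50% at 28 to 31 nt and those of Lig4-/- lines A and B at 64 and 79 nt. At the substrate the Lig4-/- curves pass it first, at 29 and 31 nt.

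The limit of 20 nt cut through a spread of lengths. At Jk1 overhangs of 19 nt held 0.501% and 0.208% of reads in H2AX-/- lines 5 and 8 and 0.469% in 53BP1-/- line B, and those of 20 nt held 0.342%, 0.322% and 0.755% in the same order. In the Lig4-/- lines, A and B, both lengths were under 0.01% of reads. Overhangs of 18 nt held 0.115% and 0.264% in those lines. In H2AX-/- lines 5 and 8 they held 1.44% and 0.0133%, and in 53BP1-/- line B 0.287%. At the substrate 53BP1-/- line B held 0.217% at 19 nt, 0.000888% at 20 nt and 2.01% at 21 nt. Lig4-/- line B held 0.0929% at 19 nt, 0.567% at 20 nt and none at 21 nt, so neighbouring lengths were uneven within a line.

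Individual members differed between lines far more than their total. At Jk1 235 of 280 members (83.9%) were listed in 1 line alone, 39 in 2 lines, 3 in 3 lines and 3 in 4. At the substrate 411 of 486 (84.6%) were listed in 1 line alone, 58 in 2, 16 in 3 and 1 in 4. Of those in 1 line alone, 96 were in 53BP1-/- line C, the only line whose structures with 1 read were also listed. Of the other resected structures, with overhangs under 20 nt or 5' overhangs, 56.9% at Jk1 and 60.3% at the substrate were in 1 line alone; these differ from the members in reads per structure, which was not matched. Members found in 1 line alone carried 65.2% and 65.5% of member reads in H2AX-/- lines 5 and 8 at Jk1, 71.6% in 53BP1-/- line B, and 79.6% and 42.8% in the Lig4-/- lines (A and B). At the substrate they carried 97.8% in 53BP1-/- line C and 93.4% in H2AX-/- line 8, the lines of the other runs, and 37.2 to 71.5% in the 4 lines of run set 4. At Jk1 there was no such gap, since H2AX-/- line 8, also in set 2, was at 65.5%, within the 42.8 to 79.6% of the lines of run set 4. The part of shared sequencing in the substrate gap was not tested.

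A structure was counted as higher when its percent of reads in every mutant line exceeded that in every Lig4-/- line, with an absent structure at 0. At Jk1 this held for 1 of 164 members in the H2AX-/- comparison, against 5.43% of all 1584 structures. That member was a 59-nt overhang with 116 nt lost from the 3'-ending strand. It held 0.00117% and 0.237% of reads in H2AX-/- lines 5 and 8 and 0.127% in 53BP1-/- line B, and was not listed in the Lig4-/- lines (A and B). It was the only member in all 3 mutant lines at Jk1. In H2AX-/- line 5 it had 2 reads, the lowest count listed for that line. In the 53BP1-/- comparison, with 1 mutant line, 141 of 221 members were higher, against 47.3% of all 1608 structures. By the rule, any structure listed in that line and in neither Lig4-/- line was higher. The line alone listed 116 members, so this count mostly restates which members it listed.

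At the substrate 1 of 299 members was higher in the H2AX-/- comparison, against 5.45% of all 1744 structures. It was the 63-nt overhang that led H2AX-/- line 5 with 1.42% of reads, and it held 0.00823%, or 6 reads, in line 8. In the 53BP1-/- comparison 3 of 380 members were higher, against 4.53% of all 2031 structures. They were overhangs of 34, 21 and 64 nt, with 0.882%, 0.510% and 0.0115% of reads in 53BP1-/- line B and at most 0.00314% in line C. In line C they had 3, 4 and 1 reads, where 1 was the lowest count listed. The 34-nt overhang held 0.00151% in Lig4-/- line A. No member was listed in all 4 mutant lines at the substrate.

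The leading members show how different the lines were. In H2AX-/- line 5 at Jk1 a 28-nt overhang held 0.523% of reads, a 23-nt overhang 0.510% and a 21-nt overhang 0.483%. Their 3'-ending strands had lost 138, 135 and 142 nt. Line 8 listed none of these 3. It was led by overhangs of 27, 26 and 31 nt at 0.341%, 0.314% and 0.279%, whose 3'-ending strands had lost 136, 137 and 129 nt. The stops of both lines therefore fell in the same stretch, in other pairings with stops of the 5'-ending strand.

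In 53BP1-/- line B at Jk1 the leading members formed a ladder on 1 position of the 5'-ending strand, 158 nt inside. Overhangs of 20, 21, 22 and 23 nt from that position held 0.378%, 0.562%, 0.267% and 0.165% of reads. The 8 members that shared it made up 18.1% of the line's member reads. Of the ladder, H2AX-/- line 8 listed the 20-nt overhang at 0.193% and the 22-nt overhang at 0.0899%, and H2AX-/- line 5 the 23-nt overhang at 0.510%. Neither Lig4-/- line listed any of the 4.

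At Jk1 the leading members of the Lig4-/- lines were of mixed length. Line A had overhangs of 54, 98 and 23 nt at 0.108%, 0.0812% and 0.0799% of reads. Line B had a 26-nt overhang at 0.458%, also the second of H2AX-/- line 8 at 0.314%, followed by overhangs of 79 nt at 0.286% and 129 nt at 0.277%. These 3 made up 58.5% of the member reads of line B, whereas the top 3 made up 27.2% and 17.1% in H2AX-/- lines 5 and 8, 12.1% in 53BP1-/- line B and 25.7% in Lig4-/- line A. The 6 members listed in both Lig4-/- lines were uneven between them. The 79-nt overhang held 0.000634% in line A, and an 84-nt overhang at 0.0764% in line A held 0.000656% in line B. A 40-nt overhang held 0.000634% in line A and 0.201% in line B.

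The stretch from 120 to under 150 nt inside, chosen after seeing the data, held 47.4% and 42.5% of the 3'-strand stops of member reads in H2AX-/- lines 5 and 8 at Jk1, and 41.8% in 53BP1-/- line B. It held 0.152% in Lig4-/- line A and 26.6% for line B. Resected ends that were not members stopped there as well, in 42.2% and 54.7% of reads of H2AX-/- lines 5 and 8 and 50.2% of 53BP1-/- line B. In the Lig4-/- lines, A and B, they did so in 28.7% and 42.9%. The stretch was thus shared with ends that have shorter 3' overhangs, blunt ends or 5' overhangs. At the substrate it did not separate the genotypes among member reads. It held 37.1% and 57.1% of member reads in H2AX-/- lines 5 and 8, and 41.4% and 15.8% in 53BP1-/- lines B and C, against 0.184% and 45.3% in the Lig4-/- lines (A and B). Of resected reads that were not members it held 20.7% and 17.3% in H2AX-/- lines 5 and 8. It held 27.3% and 18.3% of them in 53BP1-/- lines B and C. Lig4-/- lines A and B, at 13.4% and 7.47%, were below every mutant line.

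At the substrate 1 structure could carry a large part of a line. In 53BP1-/- line C a 37-nt overhang held 2.17% of reads and 36.8% of the line's member reads, and was listed in no other line. Overhangs of 55 and 36 nt followed at 0.913% and 0.746%, and neither was listed elsewhere. Without the most abundant member of each table, the share in 53BP1-/- lines and that in Lig4-/- lines overlapped, with means of 6.92% and 3.35%. H2AX-/- line 5 was led by overhangs of 63, 54 and 62 nt at 1.42%, 1.37% and 0.829% of reads. H2AX-/- line 8 was led by overhangs of 25, 42 and 35 nt at 0.543%, 0.536% and 0.517%.

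In 53BP1-/- line B the leaders at the substrate were overhangs of 34, 21 and 34 nt at 0.882%, 0.624% and 0.590%, on 3 different 5'-strand positions. Lig4-/- line A was led by overhangs of 31, 23 and 24 nt at 0.946%, 0.819% and 0.589%, whose 3'-ending strands had lost 152, 158 and 154 nt. Lig4-/- line B was led by overhangs of 22, 20 and 42 nt at 0.662%, 0.566% and 0.514%. Its 42-nt overhang was also in 53BP1-/- line B, at 0.560%. The 18 members listed in both Lig4-/- lines included the 31-nt and 23-nt leaders of line A, each at 0.00312% in line B.

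Other overhang classes were set beside the members in the same reads. Overhangs of 10 to 19 nt on the 3' side held 9.11% and 3.06% in H2AX-/- lines 5 and 8 at Jk1 and 4.15% in 53BP1-/- line B, against 1.19% and 1.81% in the Lig4-/- lines (A and B). At the substrate they held 14.9% and 3.98% in H2AX-/- lines 5 and 8 and 7.30% and 15.2% in 53BP1-/- lines B and C. Lig4-/- lines A and B held 6.84% and 5.10%, so H2AX-/- line 8 was below both. Long overhangs of the opposite kind, 5' overhangs of 20 nt or more, held 6.53% and 3.56% at Jk1 in H2AX-/- lines 5 and 8 and 11.0% in 53BP1-/- line B, against 0.565% and 1.77% in the Lig4-/- lines (A and B). At the substrate they held 1.51% and 5.31% in H2AX-/- lines 5 and 8, and 9.45% and 18.3% in 53BP1-/- lines B and C. Lig4-/- lines A and B held 0.308% and 1.34% there. Every mutant line was above both Lig4-/- lines for long overhangs of either polarity at both sites; whether the polarities differ in this was not tested.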

How the data were processed

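Genomic DNA was ligated, treated with bisulfite, amplified and sequenced on an Illumina MiSeq, per the labels' protocols. The authors deposited a table per line and site with the read count of each end structure, a position and an overhang; these counts are raw and pool 3 libraries. No source used here names the aligner, filters or genome build, so no coordinates or sequences are printed. Gene symbols came from a RefSeq table of assembly GRCm38.p6. Another 2 tables were identical to tables used and were left out. The column meanings were worked out from the data: the position is where the 5'-ending strand stops, the 3'-ending strand stops at the position minus the overhang, and positive overhangs are 3' overhangs, as in the KpnI control. Loss is the position minus 2. The table of 53BP1-/- line C also lists structures with 1 read, whereas the others start at 2. Counts of structures in that line, including values with each structure counted once, therefore have a lower floor.

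Shares, weighted medians and exact permutation tests over lines were computed with scipy 1.17.1 and pandas 2.3.3 (numpy 2.4.6, Python 3.11.15), and matplotlib 3.10.9 drew the figures. The share of all reads and its interval were tested on reads redrawn with a known share. The permutation test was checked on small sets of fixed values, and the other measures were not tested in this way. The text names the 3 leading and the longest members of each table and up to 5 members shared by all mutant or both Lig4-/- lines per site; a few others were chosen after their values were seen. The members, classes and rules were chosen with earlier results of these data known. No test result is given for weighted medians of length and 3'-strand loss, or for the near-end share, since length chose the members. Alternatives changed the length limit, read minimum, denominator, loss limits, leading members, runs and lines.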

Additional observations from a re-analysis of the deposited data

Results flagged for a closer look

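The genotype differences ran in opposite directions at the sites for the median member length and for the share of members among ends with 140 nt or more lost from the 5'-ending strand. The median length differed by -42 nt for H2AX-/- and -40.5 nt for 53BP1-/- at Jk1, and by 16 nt and 5.5 nt at the substrate, mutant minus Lig4-/-. The share among ends with 140 nt or more lost differed by 8.26 points for H2AX-/- and 15.4 points for 53BP1-/- at Jk1, and by -13.4 and -17.4 points at the substrate. Every mutant line lay on the stated side of both Lig4-/- lines. In the Lig4-/- lines at the substrate this share rested largely on the 3 leading members of each line, and in 53BP1-/- line C on 1 member. It was not computed without them, so the opposite directions are described only with these members included. Among all resected ends at the substrate, leaving out the 3 leading members of each table changed the sign of the differences. They became 1.22 points for H2AX-/- and 0.173 points for 53BP1-/-, with overlapping lines. The order of the lengths at the substrate did not hold under other settings: the lines overlapped without the most abundant member of each table, the H2AX-/- difference was -0.5 nt with structures counted once and -4.5 nt without the 3 leading members, and the 53BP1-/- difference was -2.5 and -5.5 nt for overhangs of at least 25 and 30 nt. A comparison paired by line, added after seeing the data, took Jk1 minus substrate in the 5 lines measured at both. The sites were not measured over the same span, since the highest 5'-strand loss was 181 nt at Jk1 and 207 nt at the substrate. The median length differed between sites by -29 and -4 nt in H2AX-/- lines 5 and 8 and by -3 nt in 53BP1-/- line B, against 35 and 48 nt in the Lig4-/- lines (A and B). The share differed by 3.36 and 2.76 points in H2AX-/- lines 5 and 8 and by 6.80 points in 53BP1-/- line B, against -22.4 and -14.7 points in the Lig4-/- lines (A and B). For the share, both comparisons between genotypes gave an exact permutation p = 0.333, two-sided and unadjusted, the smallest that 2 or 1 lines against 2 allow. No test result is given for the lengths, since length chose the members.

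Tables outside the comparisons held more 3' overhangs of 20 nt or more than the KpnI control. A PCR for breaks labelled de novo at the substrate, in H2AX-/- line 8, held 19.04% of 68969 reads in 30 such structures. A single 37-nt overhang held 14.04% of all its reads, and its reads were described as mixed with those of another PCR. Cas9 breaks held 4.60% in Lig4-/- line A, with 4.03% in line B. Breaks of a zinc finger nuclease held 1.56% in 53BP1-/- line C and 1.46% in Lig4-/- line B. The KpnI control held 0.0543%.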

How the results depend on the processing

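No paired analysis was possible because each genotype comparison sets different cell lines against each other, a letter such as B names a line of its own in each genotype, and the tables pool their libraries; sites paired by line are given above. No test over lines could pass 0.05, so only direction and overlap of lines are compared, as mutant minus Lig4-/- in percentage points. The share of reads for 53BP1-/- kept its direction at both sites under all 26 alternatives. Of these, run set 4 and 2 reads or more change nothing at Jk1, and at the substrate run set 4 is the same as leaving out 53BP1-/- line C. At the substrate the share kept the 53BP1-/- lines apart from the Lig4-/- lines in 11 of 14. They overlapped with structures counted once and without the leading or 3 leading members. For H2AX-/- the share of reads was opposite with each structure counted once, at -0.167 at Jk1 and -0.611 at the substrate, and so was the share of resected ends at Jk1, at -1.39. Leaving out lines gave 3.77 to 4.47 and 8.23 to 8.94 at Jk1 for H2AX-/- and 53BP1-/-, and 3.11 to 6.04 and 1.76 to 6.72 at the substrate. Among resected ends they gave 2.04 to 2.64 and 7.34 to 7.94 at Jk1, and -4.73 to 2.57 and -5.48 to 1.82 at the substrate. At the substrate the resected share also changed sign for H2AX-/- and 53BP1-/- with limits of 15 nt (0.862 and 0.860), 25 nt (2.16 and 1.43) and 30 nt (2.20 and 1.46), in run set 4 (0.372 and 0.806) and without the 3 leading members (1.22 and 0.173); for 53BP1-/- it was 1.51 with structures counted once. For the near-end share, leaving out lines gave -10.0 to -6.04 and -9.89 to -5.93 at Jk1, and -9.15 to -0.317 and -8.24 to 0.594 at the substrate, where it was 1.12 for 53BP1-/- with a 3'-strand loss below 20 nt. Over all alternatives it ran from -15.5 to -2.53 and -15.6 to -1.50 at Jk1, and from -27.6 to -0.317 and -28.3 to 1.12 at the substrate, lowest at both substrate comparisons with a limit of 15 nt. The median 3'-strand loss ran from 20 to 71 and 20 to 77.5 nt at Jk1, and from -28 to 88 and -24 to 92.5 nt at the substrate. The median length at the substrate became -0.5 nt for H2AX-/- with structures counted once and -4.5 nt without the 3 leading members, and -2.5 and -5.5 nt for 53BP1-/- with limits of 25 and 30 nt. The causes were not tested. Depth limits members under 10 reads, which held at most 4.55% of member reads in any table.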
